A study of Mus musculus with 2 samples.

Results

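The genes described here are those of the cytosolic ribosome, the machine that translates nuclear-encoded mRNAs. They were taken by name: every RefSeq gene whose symbol is that of a large subunit (Rpl), stalk (Rplp) or small subunit (Rps and Rpsa) protein, leaving out the Rps6 kinases, Rps19bp1, Rps27l and pseudogenes. RefSeq lists 87 such genes, and 85 of the 20651 genes with a probe on the arrays were among them, 53 of the large and 32 of the small subunit. No measured value was used to choose them. Rpl37rt and Rps27rt had no matched probe. Of the 85 genes, 77 encode a standard subunit of the ribosome (46 large, 31 small) and are called core genes below, and 8 are relatives of a core gene (Rpl3l, Rpl7l1, Rpl10l, Rpl22l1, Rpl32l, Rpl36al, Rpl39l and Rps23rg1), called paralogues below. Fau, which encodes a ribosomal protein fused to a ubiquitin-like protein, carries another kind of name and is given only for comparison.

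Each ribosome is built from rRNA and a single copy of most ribosomal proteins, so a growing cell makes the proteins in matched amounts and their mRNAs are among the most abundant it holds. T cells make many new ribosomes once they are activated. Most ribosomal protein mRNAs begin with a C followed by an unbroken run of pyrimidines, the 5′ terminal oligopyrimidine (TOP) tract, through which mTOR signalling sets how strongly they are translated. A microarray measures the amount of mRNA and not its translation.

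RNA came from 2 mouse cultures labelled Th9, the IL-9-producing type of helper T cell, with 1 array each. The wild-type group came from WT mice and the other from SIRT1flox/flox-CD4-Cre mice, in which a Cre recombinase under Cd4 control acts on floxed alleles of Sirt1, the gene of an NAD-dependent deacetylase. Cre driven by Cd4 acts mainly in the T lineage, so other cells of such a culture would keep the gene. Both groups started from naive T cells, sorted by flow cytometry as CD4+TCR+CD62Lhi CD44lo from mouse spleens and lymph nodes, and both received antibodies to CD3 and CD28 (2 µg/ml each), human IL-2 (100 U/ml), IL-4 (10 ng/ml) and TGFβ1 (2 ng/ml) for 5 days, or up to 6 in the protocol. The labels do not give the age or number of the mice.

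Sirt1 itself had a probe signal of 3240 (wild-type) and 2920 (knockout), which differ by -0.08 ± 0.20 (log2, scanner error). Where the probe lies relative to the deleted exons was not known, so it checks nothing, and the second array is called the knockout-labelled array. Il9, which defines the labelled cell type, was not well above background in either genotype (5.48 and 7.36). All differences are log2 of the knockout over the wild-type signal after each array was scaled to its 75th percentile, and the error beside a difference is the scanner's own error for the spots carried to that scale. Where a pair of signals is given, wild-type comes first. With 1 array per genotype there is no replicate, no test was made, and a difference describes these 2 arrays. In bulk RNA a lower signal from fewer cells of a type and one from less RNA per cell cannot be told apart. Although the starting cells had been sorted as naive CD4+ T cells, markers of other cell types gave signal well above background on both arrays, in all lists tried. B cell markers were lower on the knockout-labelled array for 7 of 8 genes (median -0.32, summed signals of 108300 and 88960), macrophage and dendritic cell markers were higher for 7 of 9 (median 0.75, summed signals of 84680 and 84370), and markers of CD8 and NK cells were higher for 6 of 7 (median 0.37, summed signals of 12660 and 15590). Most of the macrophage and dendritic cell sums came from 1 gene, Siglech (74900 and 67500). T cell markers were split 4 higher to 3 lower (median 0.045, summed signals of 54050 and 52480), with Cd3e at -1.13. Markers of mast cells, basophils and neutrophils had a median of 0.16 over 6 genes (summed signals of 123200 and 125600) and those of red cells and stroma one of 0.44 over 5 of 6 genes (5854 and 6551). Most of the mast cell, basophil and neutrophil sums came from S100a8 (29800 and 34900) and S100a9 (92000 and 89000). The part of these cells in the values below was not tested.

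The 2 arrays carried nearly the same ribosomal protein signal. Of the 85 genes, 83 were well above background on both arrays, and 0 of these 83 differed by 2-fold or more, against 7.59% of the 12958 genes measured on both arrays (3.95% at least 2-fold higher on the knockout-labelled array, 3.63% at least 2-fold lower). The differences of the 83 genes ran from -0.87 to 0.42 with an SD over genes of 0.20, while the SD over all 12958 genes was 0.56. The difference was smaller than its own scanner error for 67 of the 83 genes, or 80.7%, against 39.4% of all genes. The median scanner error was 0.204 for the 83 genes and 0.205 for all genes. The larger share of the 83 genes within it thus restates their narrower spread. Ribosomal protein probes were brighter than most others. No comparison with equally bright genes was made, so these counts do not set the family apart from other bright genes.

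The small shift of the family as a whole depended on how the arrays were scaled. The median difference of the 83 genes was -0.054, with 31 genes above and 52 below 0, where 50.4% of all genes were higher and 49.6% lower and their median was 0.0031. The family median was 0.13 with each array centred on its median, which moved the median of all genes to 0.19, and 0.23 with normexp background correction, which put all genes at -0.057. Relative to all genes the family median stood at -0.057 both after scaling to the 75th percentile and after median-centring, and at 0.29 after normexp. The normexp fit turned on 4 wild-type spots that lay below their own local background. With the backgrounds of these spots reset, a setting chosen after seeing the data, the family median was -0.050, or -0.055 relative to all genes. Relative to all genes it was 0.066 with no background filter and 0.00092 with each probe taken on its own. With the sign depending on such choices, no direction for the family is read from these medians.

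**Figure D1:**
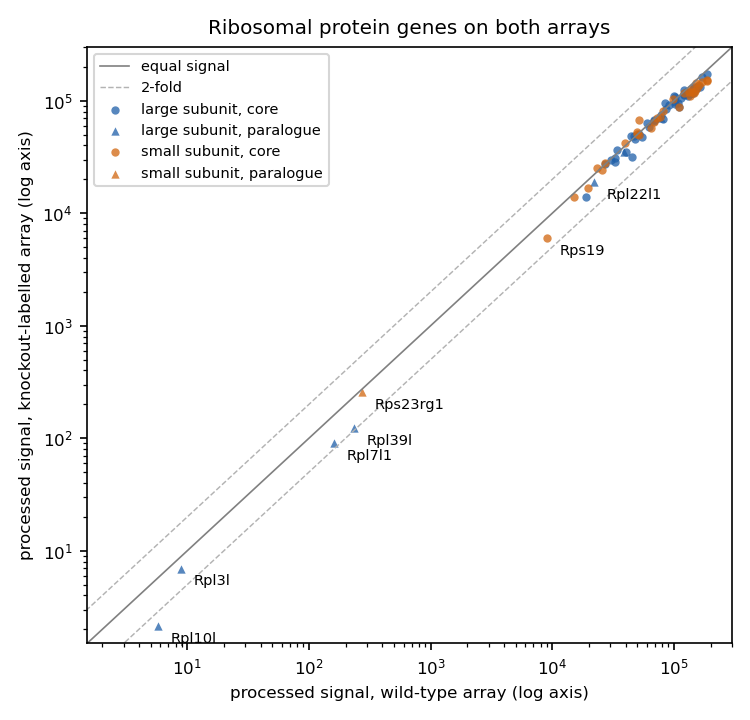
Processed signal of each ribosomal protein gene with wild-type RNA (x axis) and with knockout-labelled RNA (y axis), both on log axes, with circles for core genes, triangles for paralogues and lines for equal signal and for a 2-fold difference. The 83 genes well above background on both arrays lie within the 2-fold lines, and only Rpl3l and Rpl10l lie near the scanner's floor.

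Nearly all core genes sat at the top of the arrays. The signal of the core genes ran from 9110 to 188000 for wild-type, with a median of 98600, and from 5970 to 173000 on the knockout-labelled array, with a median of 91900. Of the 83 measured genes, 48 (wild-type) and 51 (knockout) had a probe at or above the 99th percentile of gene probes, and 80 and 79 had one at or above the 95th. The brightest were Rplp2, an acidic stalk protein (188000 and 173000), Rps24 (188000 and 149000), Rps27 (186000 and 154000) and Rpl10, which joins the large subunit late in its assembly (170000 and 161000). No gene spot was saturated. A probe's signal also depends on its sequence, so these positions rank probes and not transcripts.

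The starts shown are those of the genes with the lowest differences (Rpl39l, Rpl7l1, Rps19, Rpl15 and Rpl28) and of Rps6 (0.033) and Rpl38 (0.0015). No gene from the high end of the differences is among them. The TOP tract is the feature that ribosomal protein mRNAs are known for, and the core genes and the paralogues can be compared base by base. Each line gives 40 bases before and 20 from the annotated start, from the RefSeq promoters of mouse build GRCm38.p6, on the strand of the gene, with the tract in capitals where one begins within 5 bases of the start.
Rps6, chr4:86857348-86857407, minus strand: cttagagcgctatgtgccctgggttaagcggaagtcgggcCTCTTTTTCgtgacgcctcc
Rpl38, chr11:114668540-114668599, plus strand: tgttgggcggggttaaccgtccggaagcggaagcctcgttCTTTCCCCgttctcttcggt
Rpl15, chr14:18270967-18271026, minus strand: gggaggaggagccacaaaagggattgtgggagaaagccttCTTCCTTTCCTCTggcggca
Rpl28, chr7:4792925-4792984, plus strand: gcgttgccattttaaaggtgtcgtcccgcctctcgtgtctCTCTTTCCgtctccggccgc
Rps19, chr7:24884552-24884611, plus strand: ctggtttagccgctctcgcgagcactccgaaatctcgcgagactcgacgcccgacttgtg
Rpl7l1, chr17:46782637-46782696, minus strand: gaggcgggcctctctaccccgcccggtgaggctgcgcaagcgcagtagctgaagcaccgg
Rpl39l, chr16:10170188-10170247, plus strand: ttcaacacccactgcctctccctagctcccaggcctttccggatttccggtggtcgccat
The tract, defined as a C followed by at least 4 pyrimidines on the strand of the gene, was 9 bases long in Rps6, 8 in Rpl38 and Rpl28 and 13 in Rpl15. In Rps19, Rpl7l1 and Rpl39l no such run begins within 5 bases of the annotated start, although pyrimidine runs lie farther upstream in these lines. In Rpl39l one of these runs ends at the base just before the annotated start, so it begins only slightly outside the window. RefSeq gives Rps19 3 promoters, of which 1 is shown.

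The tract was more frequent among core genes than among genes at large and its holders overlapped with the rest in their differences. A promoter was at hand for 57 of the 77 core genes and all 8 paralogues. The tract was found in 27 of the 57 core genes, or 47.4%, in 3 of the 8 paralogues, and in 21.2% of the 27025 genes with a promoter. The median difference of the 27 core genes with the tract was -0.055, with a range from -0.44 to 0.18. It was -0.0056 for the 30 without, with a range from -0.54 to 0.18, so the groups overlapped over nearly their whole range. A start annotated more than a few bases off would hide the tract, so 47.4% is a share of annotated starts. The 30 genes without it may include some whose mRNA carries a tract, which limits the comparison.

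Other motifs were searched on both strands of the 300-base promoters. The shares of CCGGAAG and GGGCGG lay above those of all genes. The other 3 motifs were each in only 5 or 6 of the 57 core genes, so no difference is read from their shares. CCGGAAG, the core of sites bound by ETS factors such as GABP, was in 24 of the 57 core genes (42.1%), against 9.93% of all genes. The GC box GGGCGG was in 35 (61.4%, against 38.2%), and AAGATGGC, the core of the YY1 site, was in 5 (8.77%, against 3.19%). The E-box CACGTG, bound by Myc among others, was in 6 (10.5%, against 8.09%), and the TATA box TATAAA was in 6 (10.5%, against 15.7%). Core genes with CCGGAAG had a median difference of -0.054 (n = 24) and those without one of -0.033 (n = 33). The medians with and without were -0.048 (n = 35) and 0.018 (n = 22) for GGGCGG, -0.0059 (n = 5) and -0.041 (n = 52) for AAGATGGC, -0.13 (n = 6) and -0.033 (n = 51) for CACGTG and -0.019 (n = 6) and -0.048 (n = 51) for the TATA box. The ranges with and without overlapped for each motif. None of these motifs contains another, and a match describes the letters and not a bound site.

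Large and small subunit genes gave the same picture. The 51 measured large subunit genes had a median difference of -0.055 (19 higher, 32 lower, SD over genes 0.21) and the 32 small subunit genes one of -0.051 (12 higher, 20 lower, SD 0.18). The medians differed by -0.0035, and by 0.020 with the core genes alone, where the large subunit stood at -0.034 and the small at -0.054. Under the settings tried the difference between the subunits stayed between -0.026 and 0.020, both signs included, and the medians of both subunits were above 0 with median-centring and normexp. With normexp after the reset the medians were -0.053 (large) and -0.027 (small). The difference was within the scanner error for 43 of 51 large and 24 of 32 small subunit genes.

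**Figure D2:**
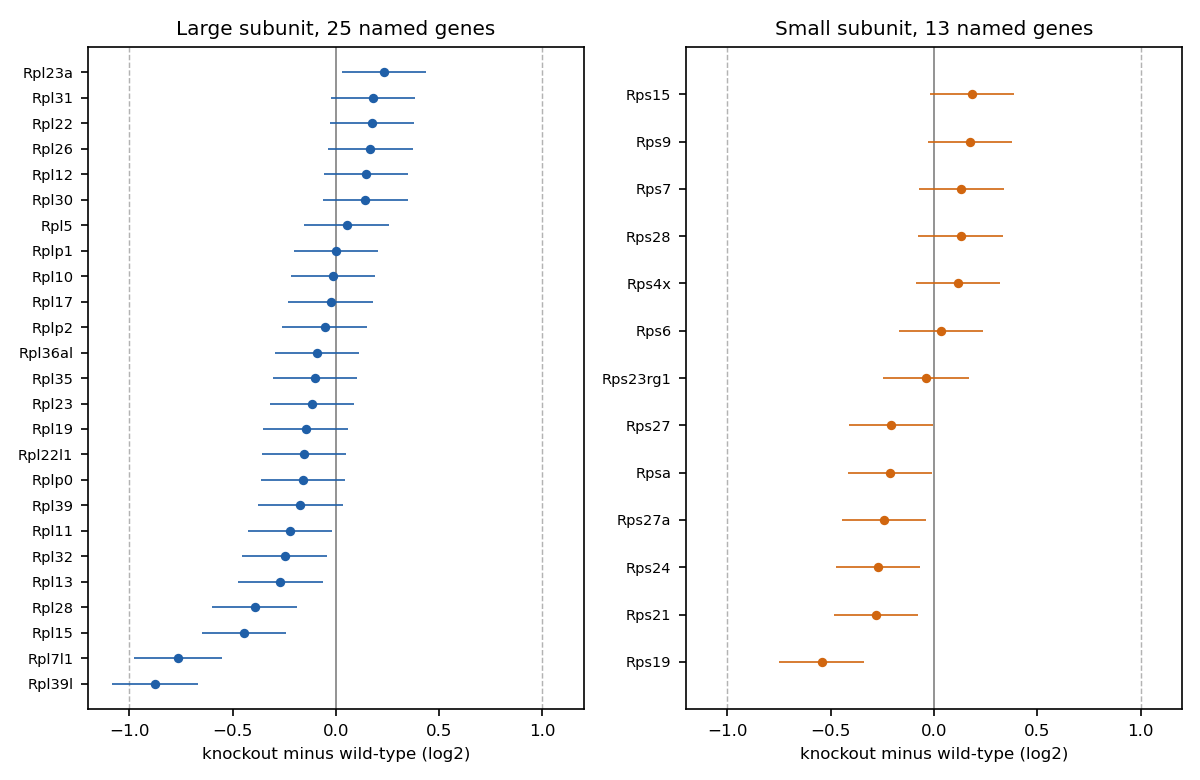
Difference between the arrays of 38 of the ribosomal protein genes described (x axis, log2 of knockout over wild-type after scaling) with its scanner error as bars, large subunit genes in one panel and small subunit genes in the other. Most bars cross 0, and Rpl39l, Rpl7l1 and Rps19 lie farthest to the left.

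Of all genes, 39.4% lay within their scanner error, and a split of the rest by direction is not given here. Of the ribosomal protein genes, 16 lay beyond their scanner error, 14 lower and 2 higher on the knockout-labelled array. This count turned with the scaling, to 5 lower (Rpl39l, Rpl7l1, Rps19, Rpl15 and Rpl28) and 23 higher with median-centring, which adds 0.19 to every difference, and to 3 lower and 47 higher with normexp. With normexp after the reset it was 15 lower and 6 higher. In the large subunit the lower core genes were Rpl15, Rpl28, Rpl13, Rpl32 and Rpl11, and the only higher gene was Rpl23a. Rpl15, which sits at the heart of the large subunit, gave 45100 with wild-type RNA and 31700 with knockout-labelled RNA, or -0.44. Its dimmer probe gave 1100 and 980, a difference of -0.10. Rpl28, a protein of the vertebrate large subunit surface, gave 19100 and 13900 (-0.39). These were the lowest differences among the large subunit core genes, and with normexp they shrank to -0.17 for Rpl15 and -0.02 for Rpl28. With normexp after the reset they were -0.46 and -0.29.

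The bright core genes Rpl13, Rpl32 and Rpl11 lay closer together. Rpl13, of which 3 probes were measured, gave 110000 and 87300 (-0.27), and its other probes -0.27 and -0.21. Rpl32 gave 164000 and 132000 (-0.25). Rpl32 and Rpl11 lay within their scanner error with quantile normalization (-0.16 and -0.16) and the deposited values (-0.16 and -0.15). At the other end, Rpl23a, a docking point for the signal recognition particle at the exit of the peptide tunnel, gave 84900 and 95400 (0.23) with its brightest probe and 39400 and 52100 (0.47) with the other. Rpl31, its neighbour at the exit, was higher by less than its scanner error on the brightest probe, 44600 and 48300 (0.18), and higher on all 4 of its probes, from 0.18 to 0.31. Rpl30, a small protein of the large subunit, gave 59600 and 62900 (0.14).

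In the small subunit Rps19 had the lowest difference. Rps19, the protein most often mutated in Diamond-Blackfan anaemia, was read by 1 probe with signals of 9110 and 5970, a difference of -0.54 ± 0.20 that is 1.46-fold. It was also the dimmest core gene on both arrays. Its difference ran from -0.57 to -0.29 over the settings tried. Rps21 gave 111000 and 87300 (-0.28). Rps24, also mutated in that disease, gave 188000 and 149000 (-0.27). It lay within its scanner error with median-centring (-0.084), quantile normalization (-0.17) and the deposited values (-0.17), and its sign turned with normexp (0.023). With loess (-0.25) and normexp after the reset (-0.27) it stayed beyond.

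Rps27a, Rpsa and Rps27 were also lower by more than their scanner error. That call was lost for all 3 with median-centring (-0.057, -0.027 and -0.021), and their sign turned with normexp (0.036, 0.064 and 0.11). With quantile normalization, loess and the deposited values Rpsa (-0.16, -0.19 and -0.16) and Rps27 (-0.11, -0.18 and -0.11) also lay within their scanner error. With normexp after the reset Rps27a, Rpsa and Rps27 stood at -0.25, -0.22 and -0.18. Rps27a, made as a fusion to ubiquitin, gave 135000 and 109000 (-0.24). Rpsa, also known as the laminin receptor, gave 148000 and 122000 (-0.21), and its 4 probes ran from -0.70 to -0.0047. Rps27, a zinc finger protein, gave 186000 and 154000 (-0.21), and its 4 probes ran from -0.21 to 0.032.

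Several small subunit genes had higher signals on the knockout-labelled array. Among them were Rps15, a protein of the small subunit's head (23400 and 25400, 0.18), Rps9, which bears on decoding accuracy (39300 and 42400, 0.17), Rps7 (50000 and 52400, 0.13), Rps28 (98600 and 103000, 0.13) and Rps4x (27100 and 28100, 0.12), each within its scanner error. Rps6, the substrate of the S6 kinases, gave 72300 and 70700, a difference of 0.033.

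The functional sites of the ribosome showed no common direction. In the stalk, which recruits the translation factors, Rplp0 gave 159000 and 136000 (-0.16), Rplp1 gave 32500 and 31100 (0.0016), Rplp2 gave -0.055 and Rpl12, the stalk base protein, gave 102000 and 108000 (0.15). Of these 4 genes all lay within the scanner error. Among the proteins that bind Mdm2, the ubiquitin ligase of p53, when ribosome assembly is disturbed, Rpl5 gave 68000 and 67400 (0.052) and Rpl11, its partner on 5S rRNA, gave 144000 and 118000 (-0.22). Rpl23 gave 144000 and 127000 (-0.12) and Rps7 gave 0.13. Mdm2 itself gave 0.38.

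The proteins around the exit of the peptide tunnel were split. Rpl22, Rpl23a, Rpl26 and Rpl31 were higher on the knockout-labelled array, and Rpl17, Rpl19, Rpl35 and Rpl39 lower, a split that was lost with median-centring and with normexp, where 0 of the 8 were lower. With normexp after the reset 4 of the 8 were lower. Rpl22, which is dispensable for translation but needed in αβ T cell development, gave 101000 and 109000 (0.18) with the brighter probe and -0.0017 with the other. Rpl26, which also binds p53 mRNA, gave 34000 and 36500 (0.17). Rpl39 gave 80600 and 68400 (-0.17), Rpl19 gave 40300 and 34800 (-0.15), Rpl35 gave 129000 and 115000 (-0.10) and Rpl17 gave 78700 and 73900 (-0.026). The list's median was 0.071, and Rpl23a alone of the 8 lay beyond its scanner error.

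Genes mutated in Diamond-Blackfan anaemia, an inherited failure of red cell production caused by loss of a ribosomal protein copy, were lower in 14 of 20 cases (70.0%), against 52 of 83 (62.7%) in the family and 49.6% of all genes. With median-centring 6 of the 20 were lower, with normexp 2 and with normexp after the reset 13. Their median difference was -0.10 and 14 of the 20 were within their scanner error, against -0.054 and 67 of 83 for the whole family, of which they are part. The lowest were Rps19 and Rpl15, and the highest were Rpl31 and Rpl26.

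The paralogues held the lowest differences of the family. Rpl39l, a relative of Rpl39 known from testis, gave 234 with wild-type and 122 with knockout-labelled RNA, which is -0.87 or 1.83-fold lower. Rpl7l1, a relative of Rpl7 that acts in ribosome assembly, gave 161 and 90.7 (-0.76, 1.70-fold). These were the only genes of the family at 1.5-fold or more, 2 of 83 lower where 12.0% of all genes were, and 0 of 83 higher where 11.0% of all genes were. Their signals were far below those of the core genes, and for Rpl39l the difference ran from -0.91 to -0.67 and for Rpl7l1 from -0.89 to -0.49 over the settings. Rpl7, the relative of Rpl7l1 in the ribosome, gave 145000 and 133000 (-0.060), and 3 other probes of it gave -0.10 to -0.080.

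Among the other paralogues Rpl22l1, the relative of Rpl22, gave 21900 and 18800, a difference of -0.16 where Rpl22 itself stood at 0.18. Rpl36al gave 38800 and 34800 (-0.092), Rpl32l gave 77700 and 70600 (-0.073), and Rps23rg1, a gene derived from an Rps23 retrocopy, gave 274 and 255 (-0.039). The median of the 6 measured paralogues was -0.12, and 4 of them lay within their scanner error. Rpl3l, the form of Rpl3 found in heart and skeletal muscle, gave 8.93 and 6.94 and Rpl10l, the testis form of Rpl10, gave 5.73 and 2.12. Neither was well above background on either array (the scanner's lowest such signals were 24.6 and 9.76), so their fold is left out. Ribosomal proteins have many near-identical processed copies, 315 annotated pseudogenes in the RefSeq table, so a probe may bind RNA of more than 1 copy and the values of paralogues are uncertain to that extent.

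Several genes were read by more than 1 probe, which gives a repeat measurement within each array. In 51 genes with 136 probes above background on both arrays, the SD between probes of the same gene was 0.15 on the log2 scale, and the SD between the means of different genes was 0.17. The first is a spread of single probes and the second a spread of means over several probes. Their sizes therefore cannot be set against each other directly. In 16 of the 51 genes the probes had opposite signs. The range within a gene was over 0.5 for 4 genes, among them Rpsa, Rpl21 (0.011 to 0.64) and Rps18 (-0.70 to -0.16) and over 1 for 0 genes. Over all 168 probes above background on both arrays, 0 differed by 2-fold or more.

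**Figure D3:**
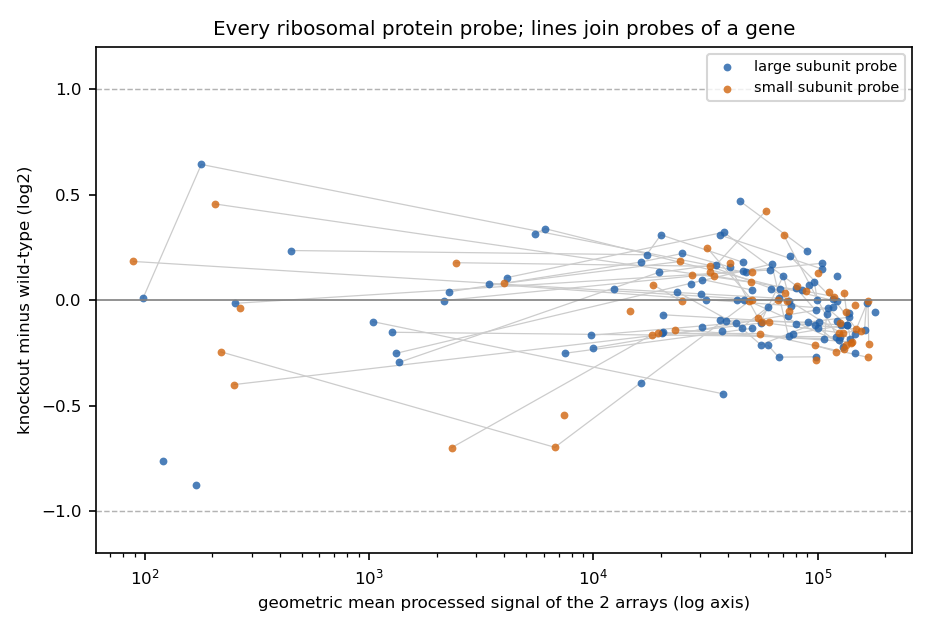
Difference of each of the 168 ribosomal protein probes (y axis, log2 of knockout over wild-type) against its mean signal on the arrays (x axis, log scale), with lines joining probes of the same gene. Probes under a signal of 1000 scatter more widely than the bright ones, and no probe reaches the 2-fold lines.

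The spread narrowed with signal. The 11 probes with a signal under 1000 had an SD of 0.47 and the 141 probes of 10000 or more one of 0.16, with medians of -0.015 and -0.034. Rpl23 had a probe spotted 10 times, of which 9 spots could be used, with 3412 ± 53.1 for wild-type and 3443 ± 48.0 for knockout (SD over spots). The spots varied by 0.022 and 0.020 on the log2 scale, so spotting repeated within an array far more closely than the scanner error of 0.20. This probe gave a difference of 0.077, while the brightest Rpl23 probe gave -0.12.

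Among the core genes, split at their median mean signal, the brighter ones lay lower than the dimmer ones. The 39 brighter core genes had a median difference of -0.12, with 32 of 39 lower on the knockout-labelled array. The 38 dimmer ones had a median of 0.020, with 14 of 38 lower. The gap of -0.14 was -0.12 with loess, -0.12 with quantile normalization and -0.11 with the authors' deposited log2 values. In 34 of the 51 genes with several probes the brightest probe gave a lower difference than the dimmest, and in 17 a higher one. Since the probe taken for a gene is its brightest, the values by gene share that dependence, and its cause was not tested.

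The genes that make, use and regulate ribosomes had set medians between -0.12 and 0.12, some of them farther from 0 than that of the ribosomal proteins, and a wider spread. RNA polymerase I and its factors, which transcribe the rRNA genes, had a median of -0.12 over 14 of 15 genes (6 higher, 8 lower, 0 at 2-fold), with Taf1b, a subunit of the promoter selectivity factor, at -0.60. Twistnb, a polymerase I subunit, stood at 0.42, but at -0.019 as the mean over its probes. Ribosome assembly factors had a median of -0.069 over 53 of 54 genes (21 higher, 32 lower). Of these Rrp9, a U3 snoRNP protein, was 2.07-fold lower (129 and 59.5). It was under 2-fold with median-centring, quantile normalization, loess, the deposited values and normexp after the backgrounds of 4 wild-type spots were reset (-0.92 to -0.66). Sdad1, chosen after its value was seen, lay at 5820 and 11100 (0.997), just under 2-fold higher.

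Translation factors were likewise divided. Initiation factors had a median of -0.085 over 31 of 32 genes (14 higher, 17 lower, 0 at 2-fold), with Eif4g3, a scaffold of the cap-binding complex, at 0.63 and Eif4a1, its RNA helicase, at -0.57. Elongation factors had a median of 0.041 over 7 genes, and Eif5a, which helps the ribosome past difficult peptide bonds, gave 2250 and 859 (-1.32). Other mRNAs known to carry a TOP tract had a median of -0.036 over 18 genes (8 higher, 10 lower, 0 at 2-fold), among them Hnrnpa1, an RNA-binding protein, at -0.61 and Eif3e, an initiation factor subunit, at -0.47. Fau gave 126000 and 128000 (0.088), within the range of the core genes.

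**Figure D4:**
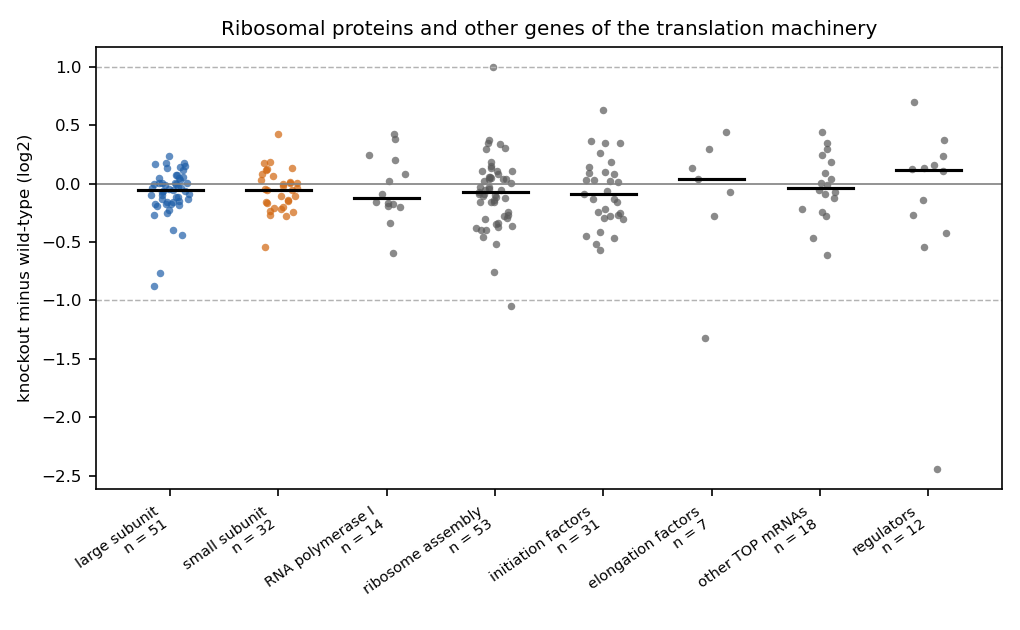
Difference of each gene (y axis, log2 of knockout over wild-type) in the ribosomal proteins and in the sets of genes that make, use or regulate ribosomes, with a bar at each set's median. The medians lie between -0.12 and 0.12, and single genes outside the ribosomal proteins reach farther, down to Rps6kb2 at -2.44.

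A list of regulators tied to ribosomal proteins or to translation, Myc, Mdm2 and Eef2k among them, included the lowest difference of all these sets. The 12 regulators had a median of 0.12 (7 higher, 5 lower), with Larp1, the protein that binds TOP tracts, at 0.16 and Mtor at 0.12. Rps6kb2, which encodes S6 kinase 2, gave 84.8 with wild-type and 14.9 with knockout-labelled RNA, which is -2.44 ± 0.29 or 5.44-fold lower. It was -1.57 with normexp and -0.90 with normexp after that reset, so it was under 2-fold in the latter. Rps6kb1, which encodes S6 kinase 1, gave -0.14. Rps6kl1, an S6 kinase-like gene that the naming rule leaves out, gave 80.6 and 26.9 (-1.52), and -0.70 under the same reset. Both were dim on the knockout-labelled array, whose lowest signal well above background was 9.76.

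**Figure D5:**
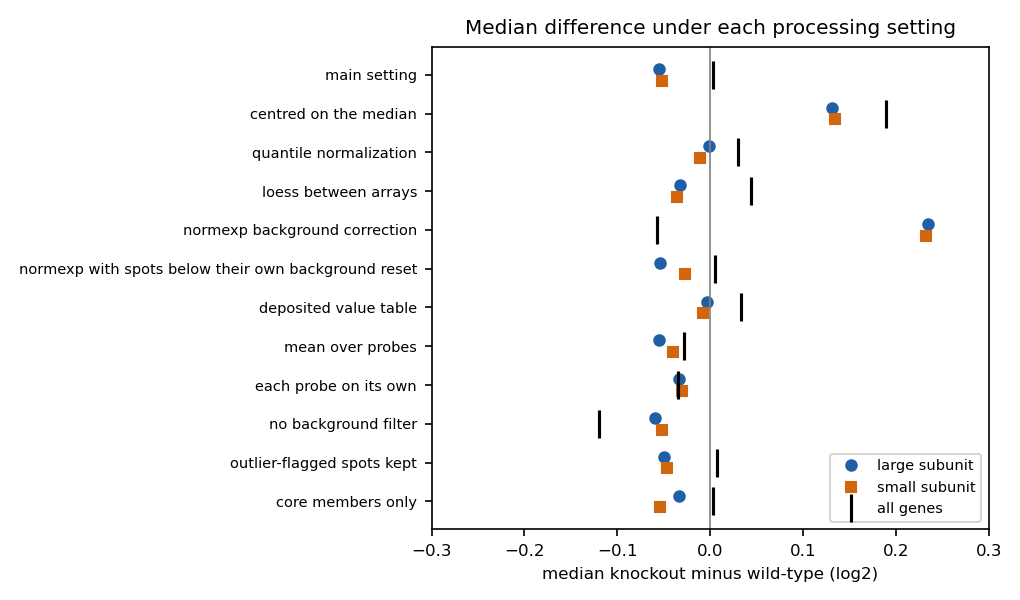
Median difference (x axis, log2 of knockout over wild-type) of the large subunit genes, the small subunit genes and all genes under each way of processing (y axis). The subunit medians differ by -0.026 to 0.020 under these settings, and both lie above 0 only with median-centring and with normexp before the reset.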

How the data were processed

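Cy3-labelled RNA was read on 1-colour mouse arrays, 1 per genotype, and the submitters' processing notes name Agilent Feature Extraction 11.0.1.1, as do the headers. Per the file headers, the processed signal of a spot is an intensity after background subtraction, deposited with its error. The authors also deposited a table with log2 values, and its normalization and centring are not given in the sources used here.

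Control spots and outlier-flagged spots (228 and 138 of 43020 gene spots) were left out, spots of a probe were averaged, and log2 signals were set to each array's 75th percentile over gene probes. In all, 57.1% and 65.3% of gene spots were well above background, and 1 array per genotype limits the precision. Probes were named by unversioned RefSeq accession (27220 of 39411 matched; table of GRCm38.p6), and 175 probes belonged to the genes described. A gene was its brightest probe well above background on at least 1 array.

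Genes named were those at 2-fold, the 6 highest and 6 lowest of each subunit, the 4 brightest and 4 dimmest, the paralogues, members of the stalk, 5S and exit site lists, Rps6, Rps27a and Rpsa, and from other lists those at 2-fold (up to 4) or else the 2 largest. Some genes within this rule are not reported here. The genes and lists were chosen with earlier results of these data known. Alternatives were median-centring, quantile, loess and normexp (limma 3.58.1, R 4.3.3, offset 50, on median pixel intensity since the files used here hold no mean), the deposited values, other probe rules and other thresholds. Other steps ran in Python 3.11.15 with numpy 2.4.6 and pandas 2.3.3, and were tested on simulated data.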

Additional observations from a re-analysis of the deposited data

How the results depend on the processing

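Of the median differences of all, large and small subunit genes, those with normexp moved farthest, to 0.23 for each set (0.2343, 0.2343 and 0.2327). On the wild-type array 4 of 44397 spots lay below their own local background, and the fitted background was -124.6 there against 11.12 on the knockout-labelled array. With those 4 backgrounds reset to the array's median, an alternative chosen after seeing the data, it was 11.37 and the family median was -0.050. The family median was -0.0049 with quantile normalization, -0.034 with loess, -0.0030 with the deposited log2 values, 0.13 with median-centring and -0.042 with the mean over probes. The count at least 2-fold lower was 1 with no background filter (Rpl10l, not well above background) and 2 at a threshold of 1.5-fold. Of 54 named genes, 46 moved by more than their scanner error with normexp, 5 with the reset normexp, 2 with the mean over probes (Twistnb among them) and 0 in the other 5 settings compared. Median-centring, 1 of these 5, adds 0.19 to every difference. That is less than the scanner error of any of these genes, so its count of 0 was fixed in advance. Keeping outlier-flagged spots changed little but the scaling (Rps19 from -0.5446 to -0.5393, Eif5a from -1.324 to -1.319), so its count of 0 carries little weight too. Rrp9 fell under 2-fold with median-centring (-0.86), quantile (-0.92), loess (-0.89), the deposited values (-0.91) and the reset normexp (-0.66). Leaving out a replicate was not possible with 1 array per genotype. No paired analysis was possible because the groups hold 1 sample each. Signal over background limits Rpl3l and Rpl10l, which have no fold here.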
